A study of Mus musculus with 11 samples.

Results

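The regions described here carried a peak of acetylated lysine 27 of histone H3 (H3K27ac) in every mouse stomach gland library except those made from mice with 1 floxed allele of Arid1a. All peaks of 8 H3K27ac libraries on the autosomes and X were merged, which gave 45804 regions. Members were chosen by the peak calls themselves: a region had to overlap, by 1 bp or more, a peak in both libraries of each of the other genotypes and in neither 1-allele library. The rule found 2335 regions, 26.8% of the 8726 regions called in all 6 other libraries. A further 3117 of these 8726 regions were called in 1 of the 2 1-allele libraries, and 3274 were called in all 8 libraries. Because the H3K27ac calls selected the regions, their absence in the 1-allele libraries and their H3K27ac strength are given as a description, with no test.

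The 1-allele mice were Atp4bCre; Rosa26NICD; Arid1aflox/+, and the 2-allele mice were Atp4bCre; Rosa26NICD; Arid1aflox/flox. The NICD mice, labelled as the control of the series, were Atp4bCre; Rosa26NICD with no floxed Arid1a allele, and the last group was wild type. All groups but the wild type thus carried Atp4bCre and Rosa26NICD. Each group had 2 H3K27ac libraries. Atp4b is a gene of the acid-secreting parietal cell, so Cre driven by it acts in that lineage while the pellets hold the whole gland epithelium, and age and sex are not given in the sources used here. Fixed epithelial pellets were pooled before immunoprecipitation, so the number of animals per library is unknown and the spread between libraries may be technical. In such bulk material, fewer cells with a mark and less of the mark per cell cannot be told apart. Another 3 libraries, 1 per genotype and with no replicates, were labelled as trimethylated lysine 4 of histone H3 (H3K4me3). They were Arid1a-floxed, NICD and wild type. The Arid1a-floxed H3K4me3 library is titled as having 1 floxed allele but listed with a genotype of 2, which leaves its allele number unknown, and the protocol names an H3K27ac antibody alone.

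H3K27ac marks active promoters and enhancers, where it is laid down by the acetyltransferases p300 and CBP. H3K4me3 marks promoters, above all those with many CpG dinucleotides. Arid1a is the large DNA-binding subunit of the BAF form of the SWI/SNF chromatin remodeller, which opens chromatin at enhancers and promoters, and its loss in other tissues is known for lowering H3K27ac at enhancers. NICD is the intracellular part of Notch, which enters the nucleus and activates genes together with the DNA-binding protein Rbpj.

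Most of the regions lay at promoters, and the windows of 6 such promoters are printed below. A window touches a member but can extend beyond it, and only that of Zfp445 lies wholly inside its member. Each sequence is RefSeq's window of 300 bases, from 250 before to 50 after the gene's start, on GRCm38.p6. Zfp445 and Slbp were among the strongest members by their peaks in NICD and wild type glands, Notch1 and Rbpj belong to the pathway that Rosa26NICD activates, Rpa1 is one of the DNA replication genes, and Snrnp70 has a dense run of one motif. The windows lie at chr9:122865957-122866256 (minus strand) for Zfp445, chr5:33652525-33652824 (minus strand) for Slbp and chr2:26503773-26504072 (minus strand) for Notch1. Those of the other 3 lie at chr5:53590096-53590395 (plus strand) for Rbpj, chr11:75348334-75348633 (minus strand) for Rpa1 and chr7:45395693-45395992 (minus strand) for Snrnp70. Sequences read 5′ to 3′ along the gene, and capitals mark any match, on either strand, to the GC box GGGCGG, the CCAAT box CCAAT, the E-box CACGTG, the NRF1 core GCGCATGC, the Rbpj motif TGGGAA and the other motifs searched.
Zfp445: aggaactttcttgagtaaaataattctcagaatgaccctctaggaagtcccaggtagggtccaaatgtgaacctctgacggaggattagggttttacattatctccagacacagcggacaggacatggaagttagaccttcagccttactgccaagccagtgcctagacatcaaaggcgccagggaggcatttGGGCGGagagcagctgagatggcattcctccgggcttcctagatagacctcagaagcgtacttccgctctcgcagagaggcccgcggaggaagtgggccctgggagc
Slbp: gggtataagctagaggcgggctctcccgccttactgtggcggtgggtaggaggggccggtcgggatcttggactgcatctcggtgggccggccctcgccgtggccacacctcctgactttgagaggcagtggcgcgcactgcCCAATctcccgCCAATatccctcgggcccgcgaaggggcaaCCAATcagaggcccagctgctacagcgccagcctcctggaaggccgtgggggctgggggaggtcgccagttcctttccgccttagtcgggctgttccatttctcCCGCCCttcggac
Notch1: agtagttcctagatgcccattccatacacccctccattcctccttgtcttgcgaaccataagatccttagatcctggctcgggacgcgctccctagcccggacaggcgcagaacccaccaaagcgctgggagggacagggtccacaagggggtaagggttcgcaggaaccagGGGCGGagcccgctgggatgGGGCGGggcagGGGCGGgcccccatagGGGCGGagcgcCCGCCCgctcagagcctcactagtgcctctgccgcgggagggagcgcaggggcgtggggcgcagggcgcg
Rbpj: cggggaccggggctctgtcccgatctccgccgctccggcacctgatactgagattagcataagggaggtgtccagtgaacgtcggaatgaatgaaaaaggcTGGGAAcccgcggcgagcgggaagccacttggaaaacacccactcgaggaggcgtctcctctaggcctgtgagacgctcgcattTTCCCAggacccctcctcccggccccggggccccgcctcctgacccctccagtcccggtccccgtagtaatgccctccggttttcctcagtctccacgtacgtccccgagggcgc
Rpa1: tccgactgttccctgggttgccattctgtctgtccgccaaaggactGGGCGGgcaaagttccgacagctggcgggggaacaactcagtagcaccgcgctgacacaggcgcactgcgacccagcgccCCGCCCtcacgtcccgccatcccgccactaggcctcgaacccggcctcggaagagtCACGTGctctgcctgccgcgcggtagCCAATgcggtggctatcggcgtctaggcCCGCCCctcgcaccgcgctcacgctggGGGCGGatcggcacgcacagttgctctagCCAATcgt
Snrnp70: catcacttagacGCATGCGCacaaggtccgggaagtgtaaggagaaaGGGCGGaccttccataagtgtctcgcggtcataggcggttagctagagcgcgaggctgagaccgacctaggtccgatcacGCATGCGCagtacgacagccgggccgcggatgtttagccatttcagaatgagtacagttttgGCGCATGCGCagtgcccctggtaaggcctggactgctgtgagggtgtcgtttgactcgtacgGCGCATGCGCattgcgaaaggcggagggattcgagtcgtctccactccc

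Zfp445 had a single GC box and 53.7% G and C, against 68.3% and 5 GC boxes for Notch1. Slbp had 3 CCAAT boxes, and the Rbpj promoter held 2 copies of the motif that its own protein is known to bind. The Notch1 member ends at chr2:26503827 and the Rbpj member touching the window ends at chr5:53590194. The GC boxes of Notch1 and both motif copies of Rbpj thus lie outside the members. The first CCAAT box of Slbp lies outside its member too, which ends at chr5:33652673. The Rpa1 member starts at chr11:75348451, which leaves the CCAAT boxes, most of the E-box and the GC boxes after it outside. In Snrnp70, the NRF1 core and its reverse complement overlap where GCGCATGCGC is complete, and both were counted, which gave 6 matches. Only the last marked stretch of Snrnp70 lies inside its member, which ends at chr7:45395768.

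Across the members, 1540 such windows, of 1387 genes, touched a member region, and 2620 windows touched a region called in all 8 libraries. The windows cover 1661 of the 2047 genes with a member, and 44 windows touching both kinds were left out. The member promoters had a median of 62% G and C and 23 CpG dinucleotides, against 65% and 26 for the promoters called in all 8 libraries, and 56.7% and 13 for all 21044 windows of the table. Both kinds of called promoter were thus richer in CpG than promoters at large. A GC box occurred in 68.8% of member windows, 73.8% of the windows called in all 8 and 46.7% of all windows. The Ets motif CCGGAAG occurred in 25.5% of member windows, 21.8% of those called in all 8 and 11.7% of all windows. The CCAAT box was in 37.3% of member windows, 33.0% of those called in all 8 and 38.5% of all. Shares of the other motifs in member windows and in windows called in all 8 libraries lay closer together. They were 21.9% and 21.1% for the Rbpj motif, 11.5% and 10.5% for the E-box, 6.43% and 6.64% for the NRF1 core, 4.29% and 3.78% for the YY1 motif AAGATGGCG, 4.09% and 3.74% for the cyclic AMP element TGACGTCA, and 3.70% and 4.01% for the AP-1 motif TGANTCA. Over all windows these 6 stood at 24.2%, 7.91%, 3.54%, 1.84%, 2.26% and 7.04%, in the same order. A match to these letters is a description of the window and not a bound site.

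The libraries differed in how many peaks they gave, and the rule reads those calls. The 1-allele lists held 5148 and 7594 peaks on the chromosomes used. The 2-allele lists held 15353 and 14364, the NICD lists 41380 and 25423, and the wild type lists 20572 and 18344. Depth did not follow that order: after duplicate removal the 1-allele libraries had 16.6 and 9.76 M tags (M for mega), the NICD libraries 13.9 and 7.96 M and the wild type libraries 18.3 and 17.0 M, while the depth of the 2-allele libraries is unknown. The weakest peaks listed had a pileup of 8 and 7 tags in the 1-allele libraries, 6 and 5 in the NICD libraries and 6 in both wild type libraries. The caller's redundant rate, the share of tags removed as duplicates, was 0.52 in NICD replicate 2, against 0.31 or less in the other H3K27ac libraries with a header. A missing peak means that the site was not called at that library's depth and enrichment, not that the mark was absent. Of 5 defining parietal cell genes, 1 and 0 had a peak within 1 kb of the start in the 1-allele libraries, none in the 2-allele and NICD libraries and 2 in each wild type library. For 5 surface pit cell genes the counts were 1 and 0 in the 1-allele, 2 and 0 in the 2-allele, 4 and 2 in the NICD, and 3 and 4 in the wild type libraries. Of 4 chief cell genes, none had a peak in the 1-allele and 2-allele libraries, against 2 in each NICD and 1 in each wild type library. Both mucous neck cell genes had a peak in NICD replicate 1 and in no other library. Of 4 leukocyte genes, at most 1 had a peak in any library and none in the 1-allele ones, and of 4 stromal genes, at most 2 had one, again none in the 1-allele libraries. The part of cell makeup in the missing calls was not tested.

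The same pattern was rarer for the other genotypes. Regions missing in both 2-allele libraries and called in the 6 others numbered 95 of 3449 (2.75%). For NICD the count was 0 of 3284 (0%), and for wild type 1 of 3295 (0.0303%). These shares compare lists of unlike length, so every list was also shortened to its 5148 strongest peaks, the length of the shortest. Regions missing only in the 1-allele libraries then numbered 105 of 2133 (4.92%), against 56 of 1804 (3.10%) for 2-allele, 26 of 1715 (1.52%) for NICD and 44 of 1831 (2.40%) for wild type. Of the 2335 members, 51 kept the pattern in lists of equal length. The other 54 of the 105 had a 1-allele peak in the full lists. Leaving out a 1-allele library eases the rule, so a rise in the count is built in. Without 1-allele replicate 2, the list that holds more peaks, 4813 regions met the rule, and without replicate 1, 2975 did.

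The regions sat mainly at gene starts. Of the 2335, 1831 (78.4%, 95% exact binomial interval 76.7 to 80.1) lay within 1 kb of the start of a protein-coding gene, against 2853 of 3274 (87.1%) of the regions called in all 8 libraries. Another 64 lay at the start of another kind of gene, 209 (8.95%) in the body of a protein-coding gene and 231 (9.89%) between genes. Such intervals cover counting error only. Read the other way, members made up 25% of the 7310 gene-start regions called in all 6 other libraries, 30.2% of the 212 at other gene starts, 36.0% of the 580 in gene bodies and 37.0% of the 624 between genes. The share by chromosome ranged between 20.5% on chromosome 14 and 36.0% on chromosome 8.

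Members had weaker peaks in the libraries that did call them. Peak strength was expressed as the percentile of a region's strongest peak within its own list, with 100 the strongest, because fold enrichments of separate libraries are not on one scale. For the 2-allele lists, which carry no scores, the order of the file stood in for strength. The median member stood at percentiles 51.3 and 46.6 in the 2-allele libraries, 81.2 and 67.0 in the NICD libraries and 56.5 and 52.4 in the wild type libraries. The regions that all 8 libraries called stood at 85.3 and 83.0, 94.7 and 90.6, and 88.5 and 87.0 in those same libraries. Over background, by the authors' fold enrichment, the median member peak reached 7.27 and 6.15 in the NICD lists and 5.27 and 5.06 in the wild type lists. For the regions called in all 8 libraries it reached 9.56 and 8.39 in the NICD lists and 7.27 and 6.96 in the wild type lists. Fold enrichment is each library's own, so these values, here and for single genes, are set side by side and not compared between libraries. Members were narrower too, with a median width of 746 bp against 952 bp. Within the members, NICD percentiles averaged 74.1 ± 10.1 and wild type percentiles 54.5 ± 2.9 (SD, n = 2 libraries each). The difference was 19.6. In the regions called in all 8 libraries the same difference was 4.90. The NICD lists were also the longest, and the part of list length in the difference was not tested.

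Strength and the missing call went together along the whole range. The 8726 regions were divided into 10 classes by their mean percentile in the NICD and wild type libraries. In the weakest class 620 of 873 regions (71.0%) were members, and through the next 8 classes the share was 54.9%, 44.8%, 34.8%, 25.8%, 15.9%, 10.9%, 6.19% and 2.52%. In the strongest class 6 of 873 (0.687%) were members. Within a class, regions away from gene starts and regions at gene starts had no steady order. The share away from starts was higher in 5 of the 10 classes, by most in class 5 (34.9% against 24.3%), and lower in the other 5, by most in class 3 (42.9% against 45.3%) and class 7 (8.85% against 11.2%). These shares use the contrast that chose the members and are given without a test.

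**Figure D1:**
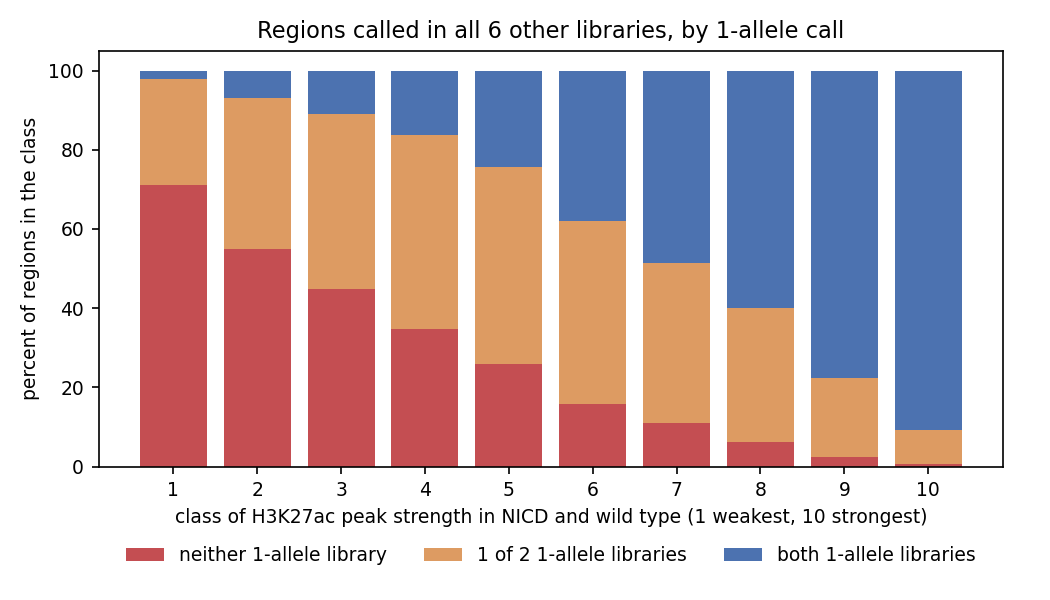
Each bar is 1 of 10 classes of the 8726 regions called in all 6 other libraries, by mean percentile of H3K27ac peak strength in NICD and wild type, and its parts are the percent of regions called in neither, 1 or both 1-allele libraries. The share called in neither falls through the classes, with 71.0% in the weakest and 0.687% in the strongest.

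H3K4me3 was not used to choose the regions. An H3K4me3 peak overlapped 677 members (29.0%, interval 27.2 to 30.9) in the Arid1a-floxed library, 2246 (96.2%) in the NICD library and 1861 (79.7%) in the wild type library. For regions called in all 8 libraries the shares were 54.1%, 99.6% and 97.0%. The lists again differ in length, with 5157 peaks in the Arid1a-floxed, 39360 in the NICD and 17522 in the wild type library, from 13.6, 11.8 and 20.8 M tags. With 1 library per genotype there is no test of a genotype difference.

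Members were thus mostly sites with H3K4me3 in NICD and wild type glands. All 3 H3K4me3 libraries had a peak at 668 members (28.6%), NICD and wild type alone at 1191 (51.0%) and NICD alone at 378 (16.2%). The Arid1a-floxed and NICD libraries shared 9 more, wild type alone had 2, and 87 members (3.73%) had no H3K4me3 peak. At gene starts, the shares with a peak were 35.2% in the Arid1a-floxed, 99.2% in the NICD and 89.5% in the wild type library. For 2578 of all genes the start was itself placed at the end with H3K4me3, which raises these shares by construction. Away from protein-coding starts they were 6.35%, 85.3% and 44.0%, against 44.2%, 97.6% and 86.2% for the regions called in all 8 libraries away from starts.

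When the regions called in all 8 libraries were weighted to the members' H3K27ac strength classes, their H3K4me3 shares came to 33.7% in the Arid1a-floxed, 97.5% in the NICD and 89.0% in the wild type library. The members' 29.0%, 96.2% and 79.7% lay below these, and were lower in 9, 7 and 9 of the 10 classes. The gap in the Arid1a-floxed library was thus much narrower at matched strength than over all regions. As few as 18 regions called in all 8 libraries fell in the weakest class, which held 620 members.

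**Figure D2:**
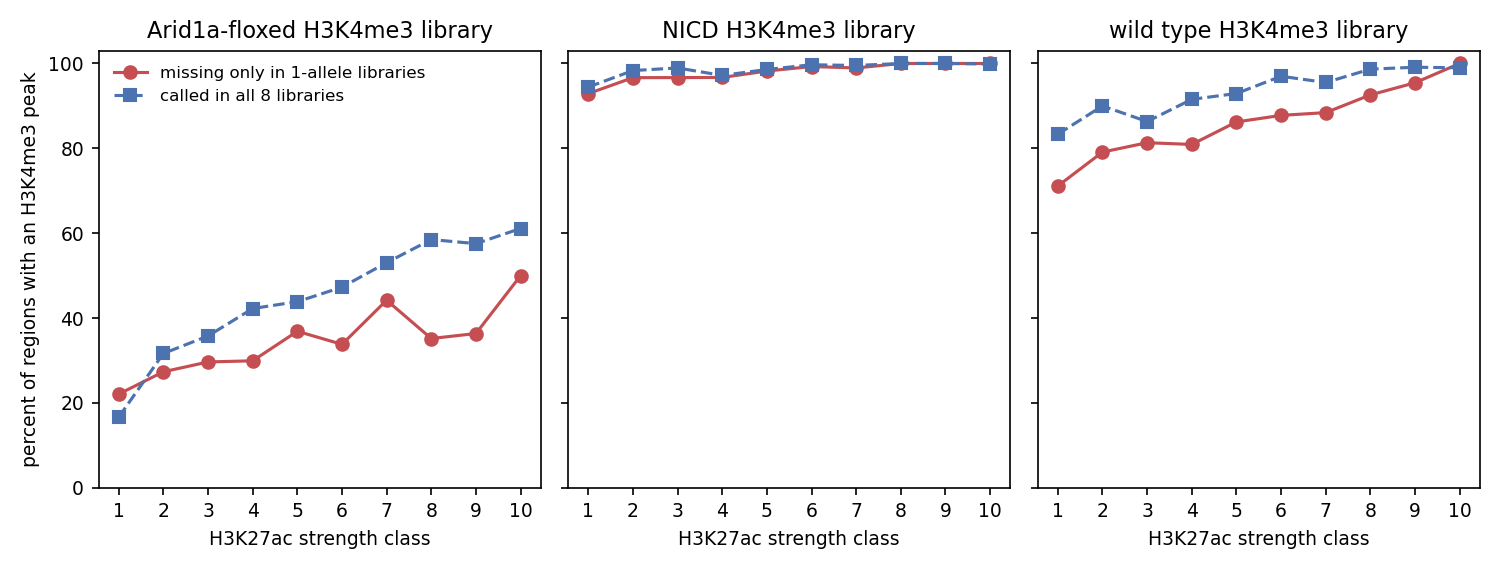
Percent of regions with an H3K4me3 peak (vertical axis) by H3K27ac strength class (horizontal axis, 1 weakest to 10 strongest) in the Arid1a-floxed, NICD and wild type H3K4me3 libraries, for members (circles) and regions called in all 8 H3K27ac libraries (squares). In the wild type library the members lie below in 9 of 10 classes, with 71.1% against 83.3% in class 1.

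The strongest members were promoters high in the NICD and wild type lists, and their 2-allele percentiles reached down to 60.4. Zfp445, a KRAB zinc finger protein that helps keep imprinted DNA methylation, led them. Its region at chr9:122865560-122866334 stood at percentiles 81.2 and 88.6 in the 2-allele, 96.4 and 97.2 in the NICD and 98.1 and 95.6 in the wild type libraries. Its fold enrichment was 14.9 and 13.2 in the NICD lists and 13.2 and 10.8 in the wild type lists. The nearest 1-allele peak was 20561 bp away. Peaks of the region thus ranked near the top of the NICD and wild type lists, and lower in the 2-allele lists.

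Tmem167b, a small membrane protein of the secretory pathway, stood at 98.6 and 91.6 in the 2-allele, 99.7 and 98.2 in the NICD and 97.0 and 89.0 in the wild type libraries. Zkscan8, a zinc finger protein, had fold enrichments of 21.6 and 15.2 in the NICD lists and 11.9 and 10.0 in the wild type lists. Pdhb encodes a subunit of pyruvate dehydrogenase, the entry from glycolysis into the citric acid cycle. Its fold enrichment was 11.1 and 9.84 in the NICD lists and 10.1 and 8.72 in the wild type lists.

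Exo1, an exonuclease of mismatch repair, stood at 88.7 and 67.7 in the 2-allele, 91.4 and 92.4 in the NICD and 94.7 and 95.8 in the wild type libraries, and the nearest 1-allele peak was 187838 bp away. Slbp binds the stem-loop of histone mRNAs, and its region stood at 98.6 and 75.8 in the 2-allele, 98.6 and 88.8 in the NICD and 97.4 and 88.5 in the wild type libraries. Its promoter, with 3 CCAAT boxes, is printed above. Usp46, a deubiquitinase, and Kat6a, a histone acetyltransferase of the MYST family, had 1-allele peaks 228 and 417 bp away, so their promoters kept H3K27ac calls beside the missing interval. The other members among the 15 strongest at gene starts were Gdf9 with Uqcrq, Leng8, BC004004, Gatb, 4833439L19Rik, Acsf3, and Fiz1 with Zfp524. The region of Gdf9 and Uqcrq also had a 1-allele peak nearby, 530 bp away. In lists of equal length, 13 of these 15 kept the pattern, which their choice by rank largely fixed. Strong peaks stay in a shortened list, and shortening a 1-allele list adds no call. Usp46 and Acsf3 lost the pattern, with 2-allele percentiles of 60.4 in replicate 1 and 60.7 in replicate 2.

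**Figure D3:**
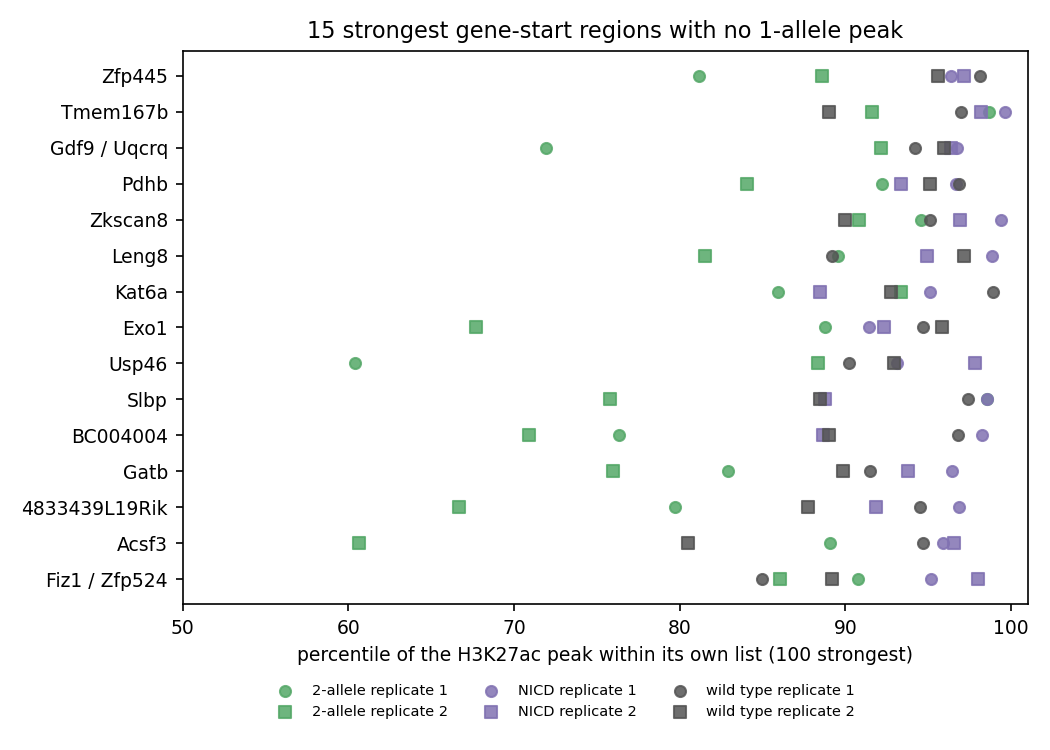
Percentile of the H3K27ac peak within its own list (horizontal axis, 100 strongest) for the 15 strongest gene-start members, with 1 point for each of the 2-allele, NICD and wild type libraries. The NICD and wild type points lie above 80, while a 2-allele point for Usp46 lies at 60.4.

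Away from gene starts, the strongest members lay in or near genes of several functions. A region 7240 bp from the start of Cyp4f14, a cytochrome P450 that hydroxylates fatty acids and leukotrienes, lay at chr17:32924596-32925455. It stood at 84.7 and 81.1 in the 2-allele, 98.3 and 98.5 in the NICD and 82.5 and 91.2 in the wild type libraries. Another lay near Cyp4f16 at chr17:32528201-32528836, with fold enrichments of 11.3 and 9.18 in the NICD lists and 7.76 and 6.77 in the wild type lists. Both regions lie in the cluster of Cyp4f genes on chromosome 17, the first in the body of Cyp4f13 and the second in that of Cyp4f17.

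A region near Mreg, a melanosome transport protein, had fold enrichments of 16.1 and 14.9 in the NICD lists and 7.41 and 7.63 in the wild type lists. A region 10838 bp from the start of Wnt11, a Wnt ligand, stood at 42.1 and 31.8 in the 2-allele, 87.0 and 83.9 in the NICD and 85.5 and 91.4 in the wild type libraries. A region 10472 bp from the start of Kdm6b, a demethylase of H3K27me3, stood at 83.8 and 69.8 in the 2-allele, 89.7 and 96.5 in the NICD and 92.8 and 88.6 in the wild type libraries, with a 1-allele peak 1335 bp away.

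Of the 87 members with no H3K4me3 peak in any library, the strongest lay at chr6:89412861-89413725, in the body of Chchd6. The nearest gene start, 50248 bp away, was that of Plxna1, a semaphorin receptor. This region stood at percentiles 57.6 and 30.2 in the 2-allele, 97.9 and 85.6 in the NICD and 75 and 81.3 in the wild type libraries. One lay 18384 bp from the start of Rgs3, a regulator of G protein signalling, with fold enrichments of 9.05 and 6.61 in the NICD lists and 5.81 and 5.54 in the wild type lists. One lay 2063 bp from the start of Id2, an inhibitor of basic helix-loop-helix factors, with fold enrichments of 4.35 and 4.81 in the NICD lists and 3.66 and 4.07 in the wild type lists. The others named by rank lay near Wfdc1 and Cfap54.

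Genes were counted once each by the regions within 1 kb of their starts. Of 7669 protein-coding genes with a region called in all 6 other libraries, 2047 (26.7%) had a member. Of these, 1774 had members alone, 273 also had a region that a 1-allele library called, and 1716 had no 1-allele peak within 1 kb. Genes with a member had a median strength of 65.5, other genes 84.0 and all 7669 genes 79.9. Lists of genes by function are set against the 26.7% of all genes.

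Arid1a itself was a member gene. Its region at chr4:133757045-133757485, 276 bp from the start, stood at 33.0 and 25.8 in the 2-allele, 72.5 and 41.3 in the NICD and 53.1 and 64.6 in the wild type libraries. Fold enrichment there was 3.49 and 3.35 in the NICD lists and 3.59 and 3.82 in the wild type lists, and the nearest 1-allele peak was 3331 bp away. The promoter table gives Arid1a a second start downstream of this one, and a 1-allele library called a region within 1 kb of an Arid1a start, so the gene was not without a 1-allele call. Peaks do not check the deletion of Arid1a, and no value here does. Of 18 SWI/SNF genes with a region called in all 6 other libraries, 5 had a member (27.8%), close to the share of all genes. The others were Arid1b, the paralogue that replaces Arid1a in BAF complexes, Arid2 of the PBAF form, Dpf2, a reader of histone acylation, and Ss18l1, a neuronal BAF subunit. Ss18l1 shares its region with the proteasome gene Psma7, which starts close by, and the region counts in both lists. The Arid1b region was 1984 bp wide and had a 1-allele peak 454 bp away, while that of Dpf2 had none within 11565 bp.

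In the Notch pathway, 5 of 20 genes had a member (25%). They were the receptor Notch1, the γ-secretase subunit Aph1a, which takes part in releasing NICD, the DNA-binding factor Rbpj, its coactivator Maml3 and its corepressor Spen. Notch1 stood at 33.7 and 1.80 in the 2-allele, 76.1 and 74.1 in the NICD and 43.0 and 34.4 in the wild type libraries. Aph1a stood at 54.5 and 39.9 in the 2-allele, 94.8 and 93.4 in the NICD and 67.8 and 65.9 in the wild type libraries. Rbpj had 2 members on one side of its start, at chr5:53588925-53589423 and chr5:53589526-53590194, with a 1-allele peak 211 bp from the nearer. The farther one stood at 82.3 and 46.6 in the 2-allele, 85.4 and 77.8 in the NICD and 78.6 and 44.7 in the wild type libraries. These are ranks in lists of unlike length and show no difference between genotypes. That nearer region covers the first bases of the Rbpj promoter printed above.

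DNA replication had the highest share among lists of 10 or more such genes, with 9 of 16 (56.3%). The members were Orc2 and Orc3 of the origin recognition complex, Mcm4 of the replicative helicase, Cdc45, which activates it, Pole, the leading strand polymerase, Rfc1 of the clamp loader, Rpa1, which binds single-stranded DNA, and the flap nuclease Fen1 and ligase Lig1, which join Okazaki fragments. The list's median strength of 68.7 was also below the 79.9 of all genes, and 11 of its 16 genes were below that median. Fen1 stood at 70.2 and 50.2 in the 2-allele, 98.1 and 85.4 in the NICD and 53.3 and 72.8 in the wild type libraries. Orc2 stood at 58.9 and 7.66 in the 2-allele, 79.4 and 72.4 in the NICD and 67.0 and 63.8 in the wild type libraries. Fen1 shares its region with Tmem258, Mcm4 with Prkdc and Rpa1 with Smyd4, which start close by. None of the 9 genes had a 1-allele peak within 1 kb. The count was 5 with peaks of a −log10 q of 5 or more, and 0 in lists of equal length, where oxidative phosphorylation had 3 genes and Mediator and RNA polymerase II 2.

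**Figure D4:**
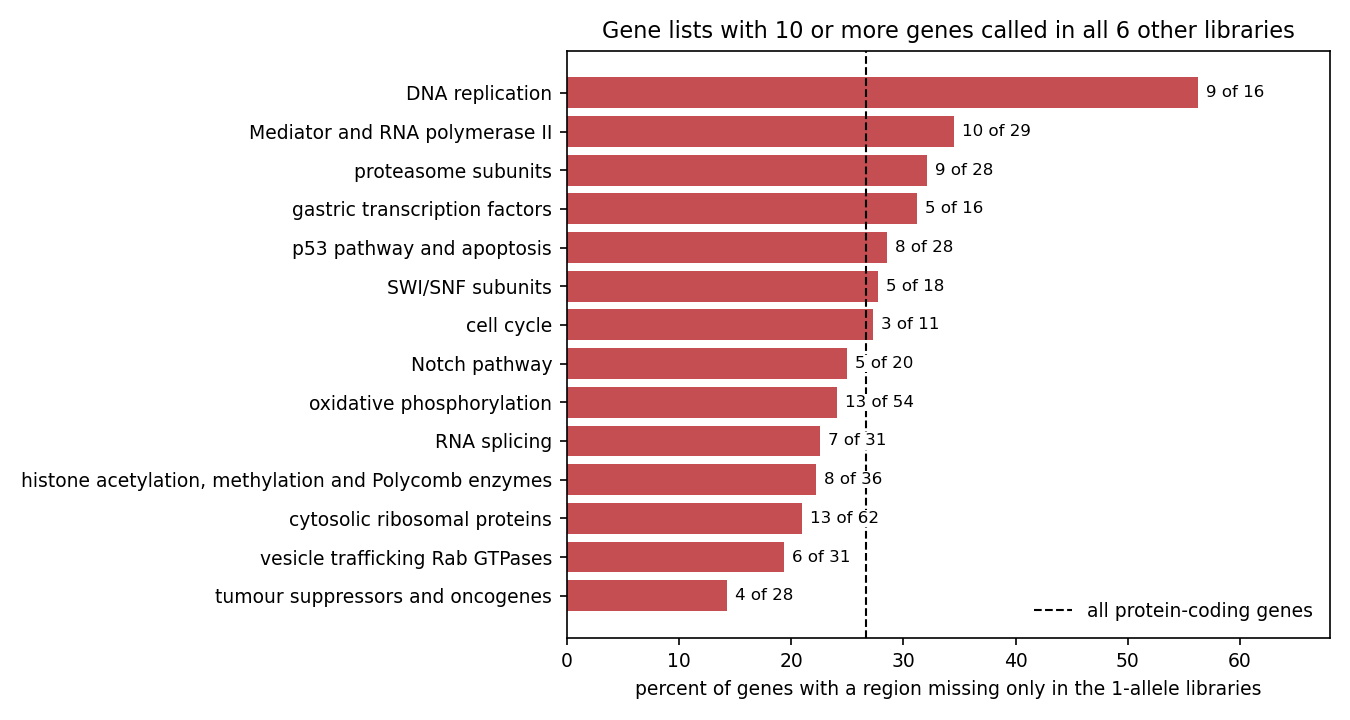
Percent of the genes of each list that had a member (bars, with counts), for lists with 10 or more genes called in all 6 other libraries, and the 26.7% of all protein-coding genes (dashed line). DNA replication stands at 9 of 16, and tumour suppressors and oncogenes at 4 of 28.

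Among Mediator and RNA polymerase II genes 10 of 29 had a member (34.5%), against 26.7% of all genes. They included Polr2l, a subunit shared by the nuclear RNA polymerases, and the Mediator subunits Med16, Med25 and Med30. Med30 stood at 88.6 and 97.5 in the 2-allele, 96.0 and 71.9 in the NICD and 96.8 and 95.9 in the wild type libraries. Proteasome subunits had 9 of 28 (32.1%), among them Psma7 of the core particle and Psmc4 and Psmd2 of the regulatory particle. The p53 and apoptosis list had 8 of 28 (28.6%). These included the survival factor Birc5, the repair protein Ddb2, the death receptor Tnfrsf1a and the adaptor Fadd. The cell cycle list had 3 of 11 (27.3%), with Aurka, Cdk2 and the inhibitor Cdkn2c. Both Cdk2 and Cdkn2c also had a 1-allele peak within 1 kb. The p53 and cell cycle shares were close to that of all genes. Median strength was 80.9 for the Mediator list and 83.0 for the p53 list. It was 73.0 for the proteasome and 77.0 for the cell cycle list, below the 79.9 of all genes. The part of strength here was not tested.

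Other lists lay below the 26.7% of all genes, some of them close to it. Oxidative phosphorylation had 13 of 54 genes (24.1%) and RNA splicing 7 of 31 (22.6%), with Snrnp70 among them. Enzymes of histone acetylation, methylation and Polycomb had 8 of 36 (22.2%), with Kat6a, Kmt2a, Kmt2b and Dot1l. Of those 8, 4 had no 1-allele peak within 1 kb. Cytosolic ribosomal proteins had 13 of 62 (21.0%) and Rab GTPases 6 of 31 (19.4%). Tumour suppressors and oncogenes had the lowest share among the lists plotted, with 4 of 28 (14.3%). These were Cdh1, the epithelial cadherin, Hras, Stk11 and Vhl. Every list of this paragraph had a median strength above the 79.9 of all genes. The medians ran from 80.5 for ribosomal proteins to 88.0 for oxidative phosphorylation. The part of strength in these shares was not tested. Cdh1 stood at 84.7 and 49.1 in the 2-allele, 96.8 and 88.1 in the NICD and 81.3 and 93.8 in the wild type libraries, and the nearest 1-allele peak was 187616 bp away.

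Gastric transcription factors had 5 of 16 (31.3%), namely Sox2, Sox9, Sox21, Klf3 and Gata4, against 26.7% of all genes. The list's median strength of 71.3 was below the 79.9 of all genes, and 10 of its 16 genes were below that median. Sox2, a factor of the stomach and its stem cells, stood at 13.7 and 14.3 in the 2-allele, 61.4 and 43.8 in the NICD and 40.2 and 68.8 in the wild type libraries. Sox9, a progenitor factor of gastrointestinal glands, stood at 76.6 and 55.5 in the 2-allele, 73.7 and 30.6 in the NICD and 73.1 and 66.1 in the wild type libraries, with groups that overlap. Among the cell type lists, parietal cells had 1 of 4 genes, the sodium-proton exchanger Slc9a4, and chief and mucous neck cells had 1 of 3, Mfsd4a. Leukocytes had 1 of 2, Lcp1, surface pit cells 0 of 2, and fibroblasts, muscle and endothelium had no gene called in all 6 other libraries. In all, 108 listed genes had a member. Genes with 3 members within 10 kb of the start included Brms1, Ranbp10, and the neighbours Pagr1a and Prrt2.

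A region touching a 1-allele peak could not be a member, so some distance to those peaks was fixed by the rule. No other set of sites was measured against the same lists, so the distances describe the members and do not set them apart. The median distance to the nearest 1-allele peak was 34.4 kb, and 1897 members (81.2%) had one within 100 kb. There was a second, near group: 121 members (5.18%) had a 1-allele peak within 250 bp, 254 (10.9%) within 500 bp and 297 (12.7%) within 1 kb. At gene starts 258 members (14.1%) had one within 1 kb, against 39 (7.74%) away from starts. H3K27ac flanks the nucleosome-free start of a gene on both sides. Just inside the rule, a gap of 35 bp separated the Prr14 member from a 1-allele peak, 36 bp that of Ndufs5 and 43 bp that of Rnf2. Just outside it, Wdr75, Niban1 and the shared promoter of Hspd1 and Hspe1 each overlapped a 1-allele peak by 175 bp, the whole of a short peak.

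**Figure D5:**
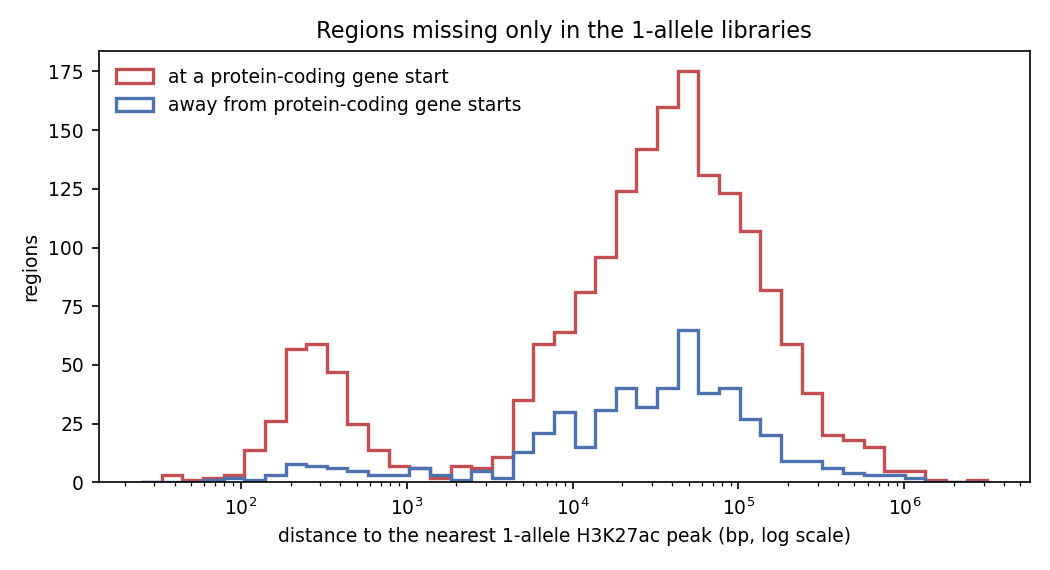
Number of members (vertical axis) by distance to the nearest 1-allele H3K27ac peak in bp (horizontal log axis), for regions at and away from protein-coding gene starts. A near group within 1 kb holds 297 members, and the median of all members is 34.4 kb.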

How the data were processed

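The submitters' processing notes name Bowtie2, MACS2 and the mouse build GRCm38 (mm10). MACS 2.0.10.20131216 was run, per the file headers, on each library with no control and the genome size set for human, at a q-value threshold of 0.05, with duplicates removed and a regional background of 10 kb. Those files hold the deposited pileup signal, fold enrichment (a ratio) and −log10 p-values and q-values of each peak, which are the authors' and were used within a list alone. The 2-allele files hold peaks with no header or score, no source used here says how they were called, and the order of each file was taken as strength (Spearman's rho 0.71 between the 2 lists).

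Peaks were merged with Python 3.11.15, pandas 2.3.3 and numpy 2.4.6, and 269 peaks on other chromosomes were left out. Gene starts came from RefSeq's promoter table for 17273 genes, the end with H3K4me3 for 2578 and both ends for 1776. Lists of 667 genes were written by hand, and 666 matched. Members and lists were chosen with earlier results of these data known. Named genes were the 15 strongest at gene starts, the 10 strongest away from them, the 5 strongest without H3K4me3 and listed genes with a member. The merging was tested on simulated data. Exact binomial 95% intervals used scipy 1.17.1. A planned permutation test of NICD against wild type percentiles is not reported, since H3K27ac calls chose the members. Alternatives were other list lengths, thresholds, windows, rankings and left-out libraries. No genome was used, so sequences of peaks were not analysed here.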

Additional observations from a re-analysis of the deposited data

How the results depend on the processing

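No paired analysis was possible because the results reported come from no test. Leaving out each H3K27ac library in turn gave 2328 to 4813 members, with 73.5 to 82.5% at gene starts, 93.8 to 97.7% with H3K4me3 in NICD, a NICD minus wild type percentile difference of 12.3 to 27, 110 to 216 listed genes, a median distance of 32.8 to 75.5 kb to a 1-allele peak, and a promoter GC of 62 to 62.3%. The 4813 were found without 1-allele replicate 2, where the rule asks for absence in the other 1-allele library alone. With all lists shortened to 5148 peaks there were 105 members, 92.4% at gene starts, 100% with H3K4me3, 11 listed genes, a distance of 42 kb and a GC of 64.3%. The NICD minus wild type percentile difference was 4.88 there. No SWI/SNF, Notch or DNA replication gene remained there, so DNA replication no longer led the lists. With the 6 other lists shortened to 7594 peaks there were 200 members, 92% at gene starts, 100% with H3K4me3, 15 listed genes, 28.6 kb and 64.3%. The percentile difference was 4.99 in that setting. At a −log10 q of 5 or more, gene starts held 82.4%, H3K4me3 covered 98.0%, the distance was 64.1 kb and GC 63%. Of 2747 members there, 1373 were among the 2335, and DNA replication had 5. Requiring no 1-allele peak within 1 kb gave 42.4 kb, 1 cell cycle gene and 4 histone enzymes, and merging across 200 bp gave 39.4 kb. Gene starts held 80.2% with a window of 2.5 kb, 73.7% with 250 bp and 96.3% with promoters defined by H3K4me3. H3K4me3 covered 97.6% within 1 kb, 79.7% in the wild type and 29.0% in the Arid1a-floxed library. The causes were not tested, apart from the fewer peaks in shortened lists. Reading 2-allele starts as 0-based, chosen after seeing the data, changed no count. An overlap of 100 bp changed nothing, since regions hold whole peaks. No difference changed sign, and counts of single gene lists moved by over 1.5 times in 67 cases and stayed within that in 256. Peak calls limit all of this: weak acetylation below a library's calling limit is not seen.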
